A study of Homo sapiens with 6 samples.

Results

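The small nucleolar RNAs (snoRNAs) of the GAS5 host locus were examined in short RNA reads from Caco2 WT cells and from PIWIL2 KO cells. Caco2 is an established human line of colon epithelial cells, and the PIWIL2 KO cells are a CRISPR/Cas9 clone of it that retains an unaltered PIWIL2 allele beside the altered one. From each genotype 3 samples, grown to confluency, were sequenced to ask how PIWIL2 depletion affects short RNAs. Per row and strand, the authors' single value for each genotype, called pooled here, is used. It is in CPM, that is, read counts scaled to the uniquely mapped reads of the library. Values of single samples were not analysed here, so the genotypes have no SD and were not tested against each other. The members were the rows with a RefSeq non-coding identifier and a SNORD symbol that start in the snoRNA-bearing stretch of GAS5 on the minus strand of chromosome 1 (hg19), and 8 of the 3437 rows met this rule. They were SNORD74, SNORD75, SNORD76, SNORD44, SNORD78, SNORD79, SNORD80 and SNORD47, in the order of transcription. SNORD77 and SNORD81, which RefSeq names from the same host, were not analysed here, nor was the level of the spliced GAS5 transcript or of PIWIL2.

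GAS5 is a long non-coding RNA whose introns carry box C/D snoRNAs. A box C/D snoRNA is cut and trimmed out of a spliced intron, is held by a core protein complex that includes the methyltransferase fibrillarin, and guides ribose methylation of ribosomal RNA through a stretch that pairs with the target beside box D. SNORD44 is known as a guide for the small-subunit ribosomal RNA and the other 7 for the large-subunit ribosomal RNA, and SNORD44, also called RNU44, is often used as a reference in small RNA assays.

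The sequences of the 8 snoRNAs are shown because they carry the boxes that define the class and set how long a fragment each locus can yield. They are given 5′ to 3′ as DNA from GRCh37, the same build as hg19. Capitals mark the core of box C (TGATG) near the 5′ end and box D (CTGA) near the 3′ end.
SNORD74, chr1:173836812-173836883, minus strand: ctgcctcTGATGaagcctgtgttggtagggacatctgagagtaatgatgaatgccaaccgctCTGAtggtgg
SNORD75, chr1:173836017-173836076, minus strand: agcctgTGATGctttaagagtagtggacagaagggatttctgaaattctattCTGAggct
SNORD76, chr1:173835773-173835853, minus strand: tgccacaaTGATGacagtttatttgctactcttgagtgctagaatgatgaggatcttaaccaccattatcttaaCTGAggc
SNORD44, chr1:173835106-173835166, minus strand: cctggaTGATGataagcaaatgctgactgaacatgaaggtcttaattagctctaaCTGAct
SNORD78, chr1:173834760-173834824, minus strand: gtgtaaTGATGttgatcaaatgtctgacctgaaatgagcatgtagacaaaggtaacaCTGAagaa
SNORD79, chr1:173834488-173834568, minus strand: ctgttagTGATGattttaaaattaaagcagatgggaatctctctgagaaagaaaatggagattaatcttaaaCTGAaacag
SNORD80, chr1:173833971-173834041, minus strand: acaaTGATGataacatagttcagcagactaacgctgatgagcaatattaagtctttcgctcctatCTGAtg
SNORD47, chr1:173833507-173833583, minus strand: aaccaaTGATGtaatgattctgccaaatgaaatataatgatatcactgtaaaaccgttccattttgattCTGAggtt

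TGATG within the first 15 bases and CTGA within the last 12 bases, read on the RNA strand, were both found in all 8 GAS5 snoRNAs. These windows were set after the members' sequences were read, so this count is a description. In the 60 other SNORD rows, both were found in 38 (63.3%), and in 0 of 28 rows of SNORA genes, the box H/ACA class, which has other boxes. Those rows were read from the row start over the RefSeq length without a check of their ends, whereas SNORD78 was read from its annotated interval, so the shares are not a like comparison. The longer form TGATGA was present in 5 of the 8, those other than SNORD75, SNORD78 and SNORD47. The members are 60 to 81 bases long, and reads of 50 bases were sequenced, so no read could cover a whole member. Intact snoRNAs and their fragments therefore cannot be told apart from these values. The longest stretch shared by any pair of members was 10 bases (SNORD44 and SNORD80). Elsewhere in GRCh37, no copy of full length and full identity was found for any member. SNORD74, alone among the members, had 1 other match with at least 90% identity within an alignment of at least 80% of its length. That identity is taken over the alignment, gaps included. As identical bases over the whole length, the closest other match was 92.3% for SNORD78 and 84.7% for SNORD74. The closest other match held 61 of the 72 bases of SNORD74, 60 of 65 of SNORD78 and 60 of 71 of SNORD80. It held 48 of 60 of SNORD75, 48 of 61 of SNORD44 and 38 of 77 of SNORD47, while SNORD76 and SNORD79 had no other match. Short fragments of the members with such matches may be shared with other loci, and the part of these matches in the counts was not tested.

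GAS5 is annotated by GENCODE as a lncRNA at chr1:173827697-173838020 on the minus strand. Its canonical transcript has 12 exons, and each of the 8 snoRNAs lies wholly in an intron of its own. Of the annotated GAS5 transcripts that span a member, 67 to 88 leave it in an intron and 1 to 20 have an exon over it. SNORD74 lies in intron 1, SNORD44 in intron 5, SNORD78 in intron 6 and SNORD47 in intron 10. The 3′ end of SNORD44 lies 73 bases before the next exon, and 5 other members lie 64 to 82 bases before theirs. SNORD80 lies 128 bases and SNORD74, in an intron of 916 bases, 630 bases before the next exon. Of the 2 most abundant members, SNORD44 thus lay within the range of the near members and SNORD74 lay farthest from the splice site. The deposited row of SNORD78 starts at 173834771, which is 11 bases inside the 3′ end of the annotated gene and leaves out box D, so reads of that end may not have been counted.

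The 8 snoRNAs of this host spanned 4379-fold in CPM in Caco2 WT and 3452-fold in PIWIL2 KO, with the same order of CPM in both libraries, and SNORD44 and SNORD74 held nearly all of the signal. On the sense strand the value of SNORD44 was 1357.5 CPM for Caco2 WT and 1277.2 for PIWIL2 KO, the highest of all rows in each. The value of SNORD74 was 658.9 CPM for Caco2 WT, rank 2 of all rows, and 741.0 for PIWIL2 KO, rank 3. Together they made up 96.0% of the estimated GAS5 snoRNA reads in Caco2 WT (95% counting interval 95.8 to 96.3) and 95.4% in PIWIL2 KO (95.1 to 95.6). A counting interval is an exact Clopper-Pearson interval on reads estimated from the CPM, where a single read equals 0.07758 CPM for Caco2 WT and 0.0738 for PIWIL2 KO. It covers the counting error of reads only and says nothing of the spread between cultures. PCR copies of a molecule cannot be recognised without molecular identifiers, so the interval may be too narrow for the number of molecules.

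The sum over the other 6 members was 83.6 CPM for Caco2 WT and 97.4 for PIWIL2 KO. SNORD47 had 27.9 and 38.7 CPM, and SNORD78 had 26.3 and 21.2 CPM, in Caco2 WT and PIWIL2 KO. The pair did not differ beyond counting error in Caco2 WT, where the quotient of SNORD47 to SNORD78 was 1.06 (0.910 to 1.23), and differed in PIWIL2 KO, where it was 1.83 (1.58 to 2.12). SNORD80 had 14.8 and 19.9 CPM, SNORD76 had 10.9 and 12.9 CPM and SNORD79 had 3.34 and 4.43 CPM. SNORD75 was close to the limit of detection, at 0.31 and 0.37 CPM, or an estimated 4 and 5 reads. In PIWIL2 KO, SNORD78 and SNORD80 did not differ beyond counting error, with a quotient of 1.07 (0.900 to 1.26). All other neighbours in the order had a quotient whose interval lay above 1 in both libraries.

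Levels were also compared per 100 bases of snoRNA length, with the length taken from RefSeq. On this scale SNORD44 had a level of 2225 CPM per 100 bases in Caco2 WT and 2094 in PIWIL2 KO, and SNORD74 had 915 and 1029. SNORD75 stood at the other end, at 0.517 and 0.617 CPM per 100 bases. From the highest to the lowest member the level spanned 4307-fold in Caco2 WT and 3395-fold in PIWIL2 KO, with the lower end resting on the few reads of SNORD75. Length changed the order at 1 place. In Caco2 WT SNORD78 came before SNORD47 per 100 bases, at 40.5 and 36.2, which did not differ beyond counting error.

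**Figure D1:**
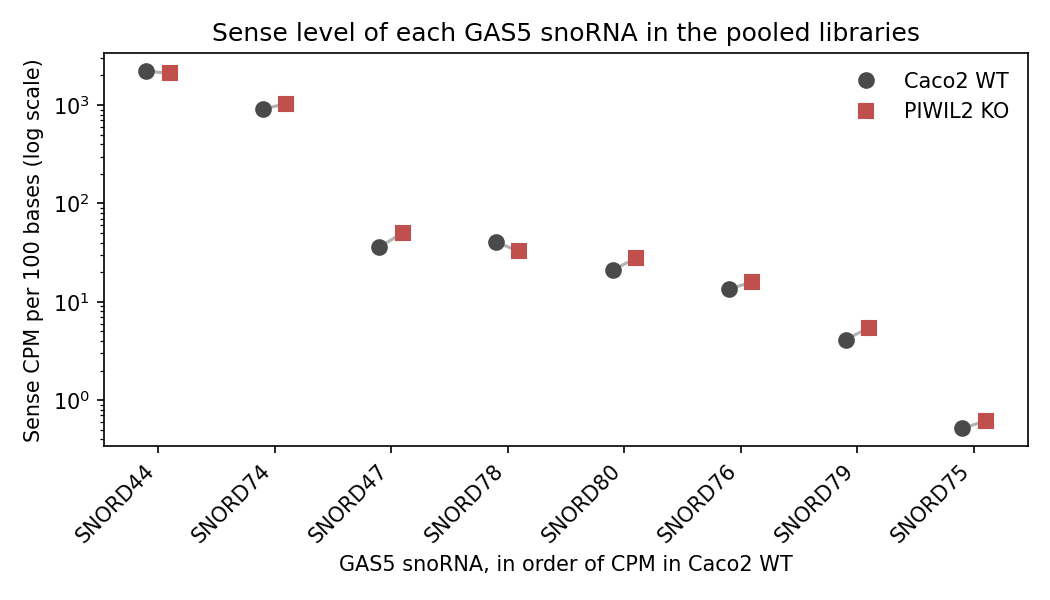
Sense CPM per 100 bases of length (y axis, log scale) of each GAS5 snoRNA (x axis), with 1 point per pooled library, circles for Caco2 WT and squares for PIWIL2 KO, and no error bars. SNORD44 and SNORD74 stand at or above 915 CPM per 100 bases in both libraries, and the other members lie at or below 50.2.

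**Figure D2:**
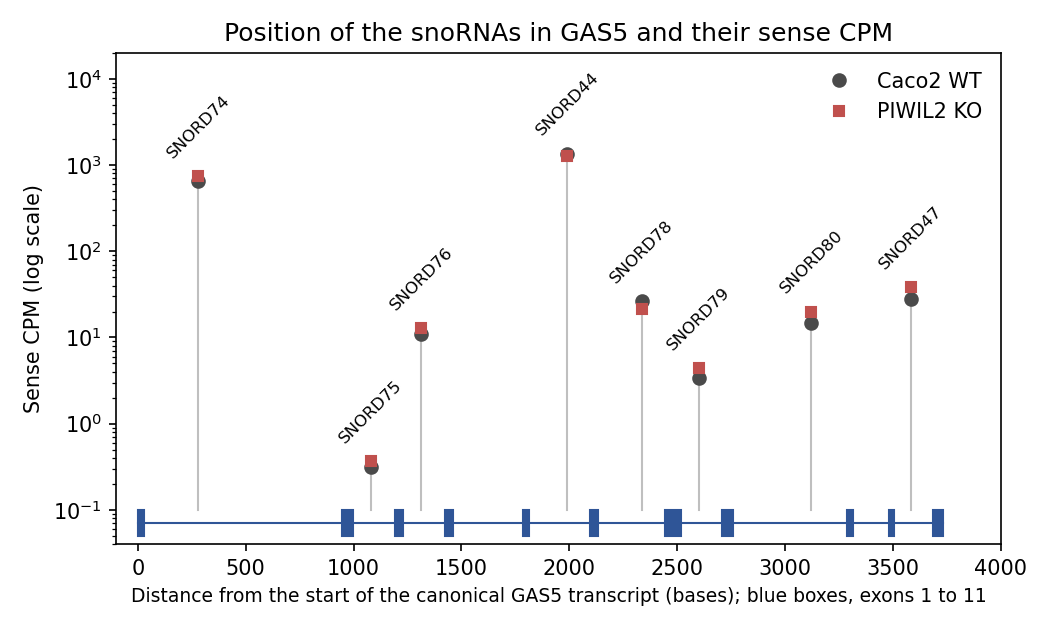
Sense CPM (y axis, log scale) of each GAS5 snoRNA at its distance in bases from the start of the canonical GAS5 transcript (x axis), with circles for Caco2 WT, squares for PIWIL2 KO and blue boxes for exons 1 to 11 of 12. SNORD44 (1357.5 CPM in Caco2 WT) lies between members with 10.9 and 26.3 CPM, and SNORD75, the lowest, is the next member after SNORD74.

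On the antisense strand, all 8 snoRNAs were listed at 0 in both libraries. Behind SNORD44 stood an estimated 17498 sense reads in Caco2 WT and 17306 in PIWIL2 KO. For an antisense value of 0, the upper limit of the expected count was set at 3 reads. This limit is 0.0171% and 0.0173% of the sense reads. For SNORD74 the limits were 0.0353% and 0.0299%. For SNORD75 the limits were 75% and 60%, so little can be said at its depth. Antisense values of 0 were not particular to the GAS5 snoRNAs. All 96 snoRNA rows were at 0 on that strand, and so were all 43 rows with a mean of at least 10 sense CPM, while 175 of the 3437 rows had an antisense value above 0.

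Within the GAS5 locus, SNORD44 and SNORD78 held a smaller share of the reads in PIWIL2 KO and SNORD74, SNORD47 and SNORD80 a larger share, while the direction of the locus sum depended on the scaling. Summed over the 8 members, sense CPM was 2100.0 in Caco2 WT and 2115.7 in PIWIL2 KO, a ratio of 1.01 (counting interval 0.991 to 1.02) and a log2 ratio of 0.011. This log2 ratio was -0.42 with the sense sums of all rows made equal, -0.40 with those of microRNA rows made equal and 0.11 with the median of protein-coding rows set to 0. The sum of all rows was 5510.8 CPM in Caco2 WT and 7409.4 in PIWIL2 KO, a small part of each library. Of it, snoRNA rows held 4393.4 and 6066.5 CPM, and the GAS5 members 38.1% and 28.5% of the estimated reads. Scaling to all rows is thus set largely by snoRNAs, the members included. The protein-coding median rests on 31 rows, which cover 3′ untranslated regions and not whole genes. The share of SNORD44 in the reads of the locus was 64.6% in Caco2 WT (64.1 to 65.2) and 60.4% in PIWIL2 KO (59.8 to 60.9). The share of SNORD74 was 31.4% (30.8 to 31.9) and 35.0% (34.5 to 35.6). SNORD78 made up 1.252% (1.123 to 1.392) and 1.001% (0.889 to 1.123), with intervals that all but touch. These shares are taken within a library and do not depend on the scaling between libraries. With 1 pooled library per genotype, the genotype and other differences between the libraries cannot be told apart.

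Ratios of PIWIL2 KO to Caco2 WT differed among the members. SNORD44 had a ratio of sense CPM of 0.941 (counting interval 0.921 to 0.961) and SNORD78 of 0.804 (0.686 to 0.945), both with an interval below 1. SNORD74 had a ratio of 1.12 (1.09 to 1.16), SNORD47 of 1.39 (1.21 to 1.59) and SNORD80 of 1.34 (1.11 to 1.62), each with an interval above 1. For the remaining members, SNORD76 at 1.18 (0.940 to 1.48), SNORD79 at 1.33 (0.882 to 2.01) and SNORD75 at 1.19 (0.256 to 5.99), the interval included 1. These intervals hold for CPM as deposited. With the sense sums of all rows made equal, SNORD74 was at 0.836 (0.813 to 0.861), and the intervals of SNORD47 (0.901 to 1.18) and SNORD80 (0.825 to 1.21) included 1, while those of SNORD44 and SNORD78 stayed below 1. With the median of protein-coding rows set to 0, SNORD44 was at 1.01 (0.985 to 1.03), SNORD78 at 0.860 (0.734 to 1.01) and SNORD76 at 1.26 (1.006 to 1.588). No member kept the same side of 1 by its whole interval under both of these scalings. Past a minimum mean of 0.3 sense CPM, which all 8 members met, 6 members were higher and 2 lower in PIWIL2 KO, while 1 was higher when the sense sums of all rows were made equal and 7 when the median of protein-coding rows was set to 0. Over all 161 rows past that minimum, 68.9% were higher and 30.4% lower in CPM as deposited. The shares of all rows under the other scalings were not computed, so the counts under them are not set against a background. None of the 8 differed by 2-fold, against 27.3% of all rows at least 2-fold higher and 8.7% at least 2-fold lower. The counting interval lay above 1 for 65.4% of the 81 snoRNA rows past the minimum and for 3 of the 8 GAS5 snoRNAs. It lay below 1 for 2.47% of them, which are the 2 rows SNORD44 and SNORD78. Which rows pass depends on depth as well as on the ratio. Outside GAS5, SNORD37 at 0.897 (0.769 to 1.05) and SNORD88B at 0.858 (0.616 to 1.19) had lower ratios than SNORD44. So had SNORD67 at 0.828 (0.361 to 1.86), SNORA64 at 0.746 (0.422 to 1.29) and SNORA14B at 0.936 (0.254 to 3.56). These rows rest on far fewer reads, an estimated 6 (SNORA14B) to 348 (SNORD37) in Caco2 WT, and their intervals include 1.

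Ratios taken relative to SNORD44 do not depend on the scaling either. SNORD74 amounted to 0.485 of SNORD44 in Caco2 WT and 0.580 in PIWIL2 KO, and the ratio of these quotients was 1.20 (exact conditional 95% interval 1.153 to 1.239). The ratio of quotients was 1.48 (1.29 to 1.70) for SNORD47 and 1.42 (1.18 to 1.73) for SNORD80. SNORD44 was thus lower against these 3 members of the locus in PIWIL2 KO by more than counting error. For SNORD78 it was 0.856 (0.728 to 1.01), for SNORD76 1.25 (0.998 to 1.58), for SNORD79 1.41 (0.937 to 2.14) and for SNORD75 1.26 (0.272 to 6.37), and each of these 4 intervals includes 1. SNORD47 relative to SNORD78, which had near-equal CPM in Caco2 WT, had a ratio of quotients of 1.72 (1.39 to 2.13). These intervals are not adjusted for the number of members compared.

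**Figure D3:**
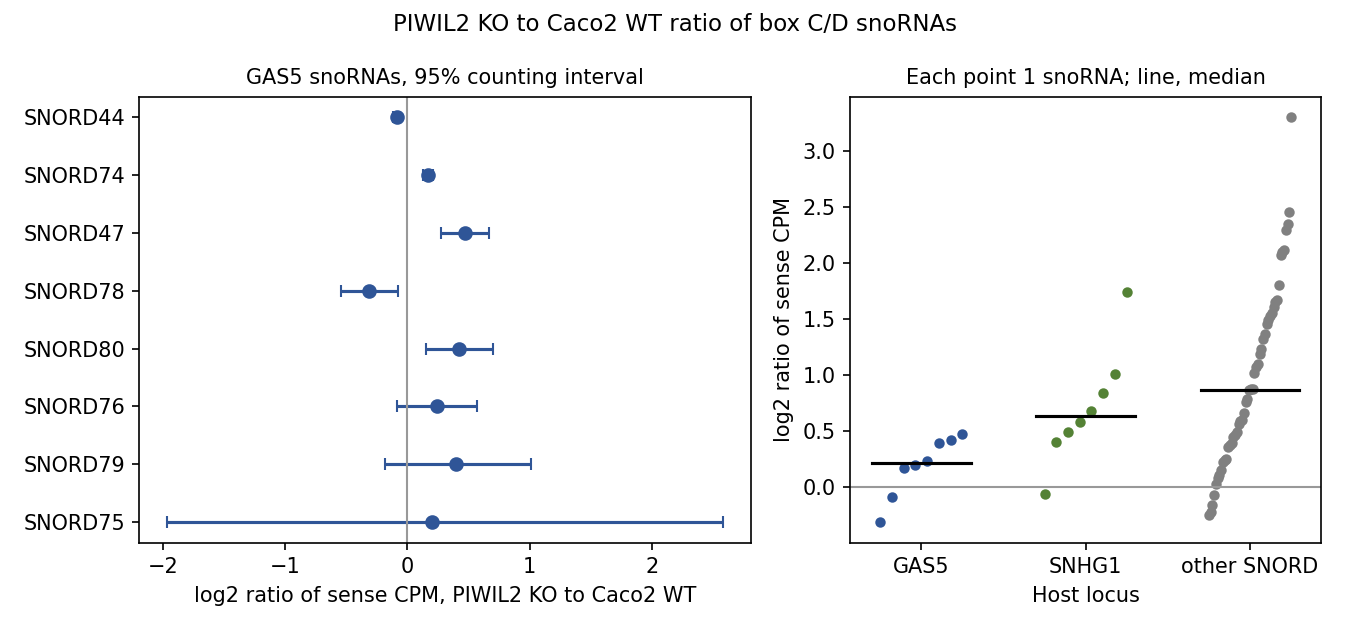
Left, log2 ratio of sense CPM in PIWIL2 KO to Caco2 WT (x axis, with 0.1 CPM added to both values) of each GAS5 snoRNA, with bars for the 95% counting interval of the ratio. Right, the same ratio (y axis) for box C/D snoRNAs past 0.3 CPM by host locus, with 1 point per snoRNA and a line at the median. In CPM as deposited, the median lies at 0.22 for GAS5, 0.63 for SNHG1 and 0.87 for other SNORD rows. With the sense sums of all rows made equal, the GAS5 median is -0.16, and this scaling lowers the medians of SNHG1 and other SNORD rows too.

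SNHG1 on chromosome 11, the other host of many box C/D snoRNAs among these rows, and the remaining SNORD rows served for comparison. The sense sum of the 8 SNHG1 snoRNAs was 1110.0 CPM for Caco2 WT and 1702.7 for PIWIL2 KO, a ratio of 1.53 (1.502 to 1.566). That of the other 52 SNORD rows was 1162.7 and 2210.2 CPM, a ratio of 1.90 (1.86 to 1.94). Relative to the GAS5 sum, the ratio of quotients was 1.52 (1.48 to 1.56) for SNHG1 and 1.89 (1.84 to 1.94) for the other SNORD rows. Without SNORD17, the row with the largest difference in CPM, named after its values were seen, the ratio for the other SNORD rows was 1.46 (1.416 to 1.498). The sum over GAS5 was thus lower against both groups in PIWIL2 KO by more than counting error.

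The median log2 ratio was 0.22 over the 8 GAS5 snoRNAs, against 0.63 over the 8 SNHG1 snoRNAs, 0.87 over 48 other SNORD rows and 0.48 over all 161 rows past the minimum. With the sense sums of all rows made equal, the GAS5 median was -0.16, and this scaling lowers the other medians given here too. The GAS5 members ranged from -0.31 (SNORD78) to 0.47 (SNORD47). The SNHG1 snoRNAs ranged from -0.057 (SNORD22) to 1.74 (SNORD28), and the 2 most abundant, SNORD30 and SNORD31, were at 0.40 and 0.85. The 2 loci overlapped in these ratios. In the share of the estimated reads of all 96 snoRNA rows, the GAS5 snoRNAs made up 47.8% in Caco2 WT (47.4 to 48.2) and 34.9% in PIWIL2 KO (34.5 to 35.2). SNHG1 made up 25.3% and 28.1%, and the other SNORD rows 26.5% and 36.4%.

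**Figure D4:**
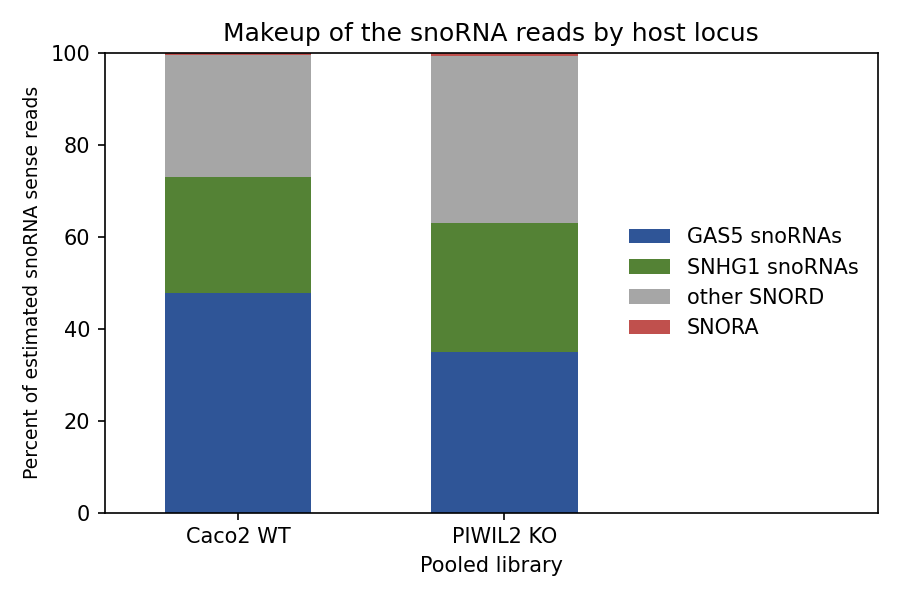
Share in percent (y axis) of the estimated sense reads of all snoRNA rows in each pooled library (x axis), stacked by host locus or class. The GAS5 snoRNAs take 47.8% in Caco2 WT and 34.9% in PIWIL2 KO, and the other SNORD rows 26.5% and 36.4%.

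Of 26 other snoRNAs averaging at least 10 sense CPM, the log2 ratio nearest to that of the GAS5 sum was found for SNORD43, SNORD59B and SNORD50A. SNORD43 had 163.5 and 167.1 CPM, a log2 ratio of 0.031, SNORD59B had 34.5 and 32.8 CPM, a log2 ratio of -0.073, and SNORD50A had 304.8 and 339.9 CPM, a log2 ratio of 0.16, in Caco2 WT and PIWIL2 KO. Likeness here means the difference in log2 ratio between 2 pooled libraries. Of 13 genes for the box C/D protein core and its assembly, only ZNHIT3 had a row, and of 10 genes for the release and trimming of intronic snoRNAs or the decay of the host, only DBR1, the lariat debranching enzyme, had one. Both rows, which cover 3′ untranslated regions, were at 0 on the sense strand in both libraries, so neither pathway was measured here. Of 7 Caco2 epithelial markers, CDH1 and KRT8 had rows, with sense values of at most 0.11 CPM for Caco2 WT and 0.30 for PIWIL2 KO, and of 3 markers of other cell types 0 had one. Such short RNA values, from 3′ untranslated regions, do not check the cell type.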

How the data were processed

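Small RNA libraries came from 3 samples labelled Caco2 WT and 3 labelled PIWIL2 KO. Per the study's methods, the authors removed adapters (Cutadapt 1.15), then counted reads by strand with piPipes on hg19 as CPM, normalized to uniquely mapped reads. The deposited values are 1 per genotype and strand. The study calls its sequencing results averages over 3 biological replicates and does not describe how they were combined. Each value is treated here as that of 1 pooled library, and the read estimates and counting intervals rest on this. Rows are named by a RefSeq accession and a start, and 3382 of 3437 matched a RefSeq symbol (GRCh38 table, used for names and lengths). All 688 non-coding rows lie on the minus strand, so snoRNAs of plus-strand hosts were not analysed here.

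The CPM worth of 1 read was the step, within a narrow searched range, that made the largest share of snoRNA values under 5 CPM whole within 0.0055 CPM, which was 86.7% of 60 values in Caco2 WT and 80.8% of 52 in PIWIL2 KO. It gives about 12900000 and 13600000 uniquely mapped reads. For a listed 0, 3 reads was set as the upper limit of the expected count, or 0.233 and 0.221 CPM. It is not a detection floor, since values of about 1 read are listed. Read numbers are estimates, and multi-mapped reads make them approximate. Clopper-Pearson and conditional odds ratio intervals came from scipy 1.17.1. The read step and the Clopper-Pearson interval of a ratio were tested on simulated data of whole reads. The intervals of shares and the conditional odds ratio intervals were not tested in this way. Log2 ratios used a pseudocount of 0.1 CPM. Sequences were read from GRCh37 (pysam 0.24.0) from the row start over the RefSeq length, and for SNORD78 from GENCODE release 44 mapped to GRCh37, and searched with BLAST 2.17.0.

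The members, lists and tests were chosen with earlier results of these data known. By rule, every member was named, with SNHG1 snoRNAs, the host transcripts where they have a row, and the 3 snoRNA rows nearest in log2 ratio. Alternatives covered scaling, pseudocount, minimum CPM, length and leaving out the abundant members.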

Additional observations from a re-analysis of the deposited data

How the results depend on the processing

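No paired analysis was possible because the samples of a genotype share a pooled column and no sample has one of its own, and leaving out each replicate was not run for the same reason. Alternatives for the antisense sum gave no value, since all members were at 0.

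The log2 ratio of the GAS5 sum, 0.011, depends on the scaling between libraries. It was -0.42 with the sense sums of all rows made equal, a shift of -0.43, then 0.11 with the median of protein-coding rows set to 0, and -0.40 with the sums of microRNA rows made equal, which was added once the data had been seen. Leaving out SNORD44 gave 0.18, leaving out SNORD74 gave -0.068 and leaving out both gave 0.22. The median log2 ratio of the members, 0.22, was -0.16 and -0.15 under the scalings to all rows and to microRNA rows. Under these 3 scalings, 1, 7 and 2 of the 8 members were higher in PIWIL2 KO, for all rows, protein-coding rows and microRNA rows in turn. The share of all rows higher under each scaling was not computed, so these counts show only that the direction depends on the scaling. No member passed 2-fold under any alternative run.

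The share of SNORD44 in the locus was 68.3% in Caco2 WT and 64.3% in PIWIL2 KO per base of length, and 94.2% and 92.9% without SNORD74. The share of the GAS5 snoRNAs among all snoRNA reads, in settings chosen after seeing the data, was 24.5% and 17.5% without SNORD44, 49.8% and 39.9% without SNORD17, and 46.6% and 33.4% with small Cajal body RNAs counted in, in Caco2 WT and PIWIL2 KO. Both shares were lower in PIWIL2 KO in every setting run.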
